A study of Mus musculus with 8 samples.

Results

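The cells described here are GFP- Pdgfrα- cells from the bones of newborn *Nes-Gfp* mice, chosen as the libraries whose sort gate was negative for both markers. They are 2 of the 8 libraries of the series. The other 6 are 2 each of GFP+ Pdgfrα-, GFP- Pdgfrα+ and GFP+ Pdgfrα+ cells. All 4 populations came from heterozygous *Nes-Gfp* pups on a C57BL/6 background at postnatal day 1, from crushed bones digested with collagenase, and were sorted as cells negative for CD45, CD31 and Ter119. Each library was made from a pool of 3 pups and 15000 to 80000 cells, and its RNA was amplified to cDNA. The GFP is driven by regulatory elements of the nestin gene, and no marker was used to select GFP- Pdgfrα- cells for what they are. The labels call all 4 populations stromal.

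Newborn bone marrow is a site where red cells are made. Their precursors divide rapidly, take up iron, build heme and globin, and assemble a membrane skeleton under the plasma membrane before they lose the nucleus. Bone stroma, in contrast, is made of cells that secrete collagen and other matrix and that carry receptors for growth factors such as PDGF and FGF.

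The values are the authors' normalized signal, which equals the reads of a gene plus 0.5, divided by an effective library size and multiplied by 1e6. A gene with 3 reads has a signal between 0.825 and 1.04, and lower values are within the counting floor, which covers counting error only. Each of 15880 genes was compared on the scale log2(signal + 1) between GFP- Pdgfrα- cells and each other population, and the mean of the other 3, in 1 limma fit over the 8 libraries. A gene was called at a Benjamini–Hochberg adjusted p of 0.05 or less. With 2 libraries against 2, an exact permutation test cannot go below 0.333, so the calls rest on the spread that limma shares across genes. All 4 comparisons use the same pair of GFP- Pdgfrα- libraries.

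The question asked was which cells make up the double-negative gate. Among the lists examined, every measured gene of red cell formation, of heme synthesis and iron uptake, and of cell division stood above every other population in GFP- Pdgfrα- cells. Most listed genes of fibroblasts, basement membrane, growth factor receptors and support of blood stem cells stood below every other population. These lists hold a small part of the genes called, and no test of the whole sets was made. Listed genes near the floor in every other library passed the authors' count filter only through GFP- Pdgfrα- cells. Their place above the others was set by that filter. In all, 3049 of 15880 genes (19.2%) were called higher than in each of the other 3 populations, and 3487 (22%) were called lower than in each. In the first group the median log2 difference from the mean of 3 was 1.56, in the second -2.47, and over all genes -0.25. The share of genes whose 2 GFP- Pdgfrα- libraries both lay above the other 6 was 26.8%, and the share in which both lay below was 31.6%. In a bulk library, fewer cells of a type and less RNA per cell cannot be told apart, and the same holds for more cells and more RNA.

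Against the mean of the 3 other populations, 4488 genes (28.3%) were called higher and 5747 (36.2%) lower. That balance depends on the scaling. After quantile normalization, 5412 genes were called higher and 4472 lower, and the median difference over all genes moved from -0.25 to 0.10. The median of each list described below kept its sign under quantile normalization and under centring on the median. It also did after rescaling without mitochondrial genes, apart from the mitochondrial list itself, which that scaling leaves out.

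The genes behind the sort gave a mixed answer on the label. *Pdgfra*, which encodes the sorted PDGF receptor, had a signal of 3.30 and 4.36 in the GFP- Pdgfrα- libraries, and *Nes*, whose regulatory elements drive the GFP, had 3.59 and 9.08. Both were below all 3 other populations, including the 1 that shares the negative gate for that marker. *Ptprc*, which encodes the leukocyte antigen CD45, had 11.3 and 6.72 in GFP- Pdgfrα- cells, against 1.33 and 0.900 (GFP+ Pdgfrα-), 0.126 and 0.148 (GFP- Pdgfrα+) and 0.691 and 1.58 (GFP+ Pdgfrα+). It was low in every library, yet both GFP- Pdgfrα- values lay above the other 6 (log2 difference from the mean of 3, 2.51, standard error 0.33, adjusted p = 3.11e-05, limma). *Pecam1*, which encodes the endothelial antigen CD31, had 12.8 and 27.9 in GFP- Pdgfrα- cells and 3.91 to 18.1 in the other libraries. The groups overlapped, and it did not pass against GFP+ Pdgfrα- cells (adjusted p = 0.171, limma).

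Erythroid genes gave the largest increases. Of 28 genes on the erythroid marker list 24 were in the table, and 24 of those 24 were above all 3 other populations, with a median log2 difference of 6.55 from the mean of 3, or 7.06 with low values held at the floor of 3 reads. Members near the floor in every other library, such as *Cldn13*, *Icam4* and *Tspo2*, could pass the authors' count filter only through GFP- Pdgfrα- cells. Their place above all 3 was set by that filter. The embryonic globins *Hba-x*, *Hbb-bh1* and *Hbb-y* and the globin chaperone *Ahsp* were not in the table. Summed over the list, the signal was 20145 and 28243 in the GFP- Pdgfrα- libraries. In the other libraries it was 454 and 390.5 (GFP+ Pdgfrα-), 77.2 and 73.1 (GFP- Pdgfrα+) and 77.1 and 90.5 (GFP+ Pdgfrα+). The GFP+ Pdgfrα- cells thus had 1.75% of the sum in GFP- Pdgfrα- cells, the GFP- Pdgfrα+ cells 0.310% and the GFP+ Pdgfrα+ cells 0.346%. Of the sums in GFP+ Pdgfrα- cells, 196 and 247 came from *Ank1* alone. The list made up 1.73% and 2.26% of all reads in the GFP- Pdgfrα- libraries. The libraries had been sorted against Ter119, an antigen of maturing red cell precursors. The antigen was not measured in the libraries, so whether cells with little of it passed the gate was not tested. The markers go against the label stromal for GFP- Pdgfrα- cells, which are therefore called by their gate.

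Hemoglobin came first. *Hbb-b1*, an adult β-globin gene, was the most abundant member of the erythroid list, also per kilobase of exon, with a signal of 4362 and 7619 in GFP- Pdgfrα- cells, against 51.4 and 32.03 (GFP+ Pdgfrα-), 19.04 and 12.9 (GFP- Pdgfrα+) and 15.3 and 14.2 (GFP+ Pdgfrα+). The lowest GFP- Pdgfrα- value lay far above the highest of the others. Its log2 difference from the mean of 3 was 8.02 (standard error 0.23, adjusted p = 5.42e-11, limma). The other adult β-globin gene, *Hbb-b2*, had 2836 and 3768, and the adult α-globin genes *Hba-a1* and *Hba-a2* had 1516 and 3524 and 1709 and 2880. Within each pair the sequences are nearly the same, so reads may be divided between the genes, and their sum is the safer measure. All globin genes together made up 0.894% and 1.42% of reads in GFP- Pdgfrα- cells and at most 0.0145% in any other library.

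Several genes of the red cell membrane and its skeleton were high. *Slc4a1* encodes band 3, the anion exchanger that anchors the skeleton (ENSMUSG00000006574, chromosome 11, 102210138 to 102227517, minus strand, build NCBIM37). Its signal was 2407 and 2990 in GFP- Pdgfrα- cells, against 24.2 and 12.5 (GFP+ Pdgfrα-), 5.42 and 5.50 (GFP- Pdgfrα+) and 5.66 and 9.05 (GFP+ Pdgfrα+). The values of GFP- Pdgfrα- cells were high in both libraries with no overlap, 147-fold over GFP+ Pdgfrα-, 494-fold over GFP- Pdgfrα+ and 367-fold over GFP+ Pdgfrα+ cells. The log2 difference from the mean of 3 was 8.08 (standard error 0.23, adjusted p = 6.36e-11, limma). Erythroid α-spectrin, listed as *Spna1*, had 736 and 658 and β-spectrin, listed as *Spnb1*, 1131 and 1155, where the other libraries had 1.14 to 8.62 and 5.94 to 28.0. Protein 4.2 (*Epb4.2*), which links band 3 to the skeleton, had 179 and 201, and *Rhag*, the Rh-associated glycoprotein, 589 and 469. Some genes of the erythroid list were also above the floor in GFP+ Pdgfrα- cells, and ankyrin (*Ank1*) had the highest signal among them. It had 767 and 819 in GFP- Pdgfrα- cells and 196 and 247 in GFP+ Pdgfrα- cells, and it was the most abundant member of the list over the other 6 libraries together. Whether *Ank1* came from erythroid cells in the GFP+ Pdgfrα- libraries was not tested.

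**Figure D1:**
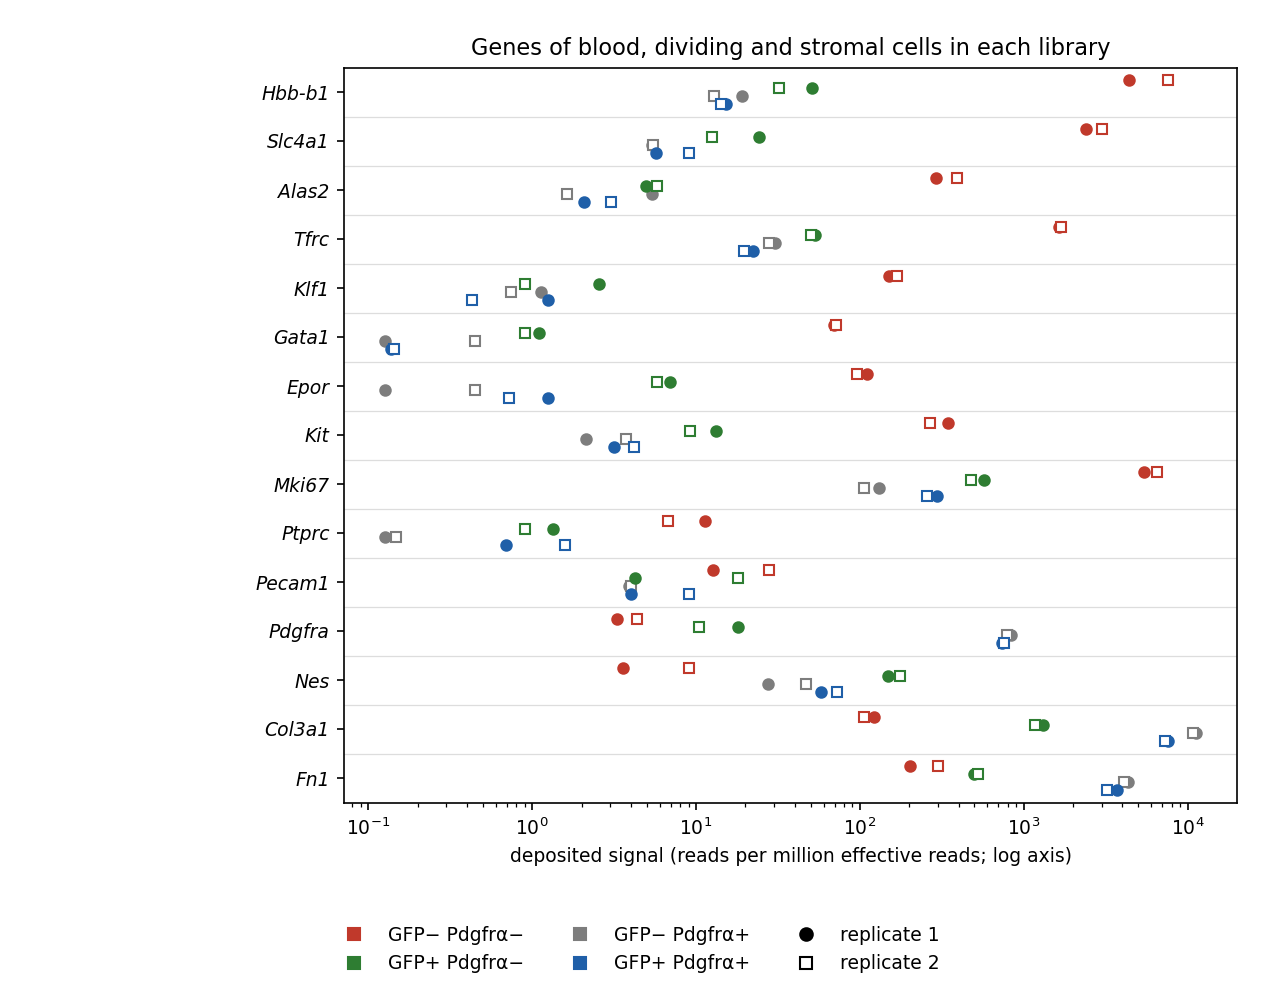
Deposited signal (reads per 1e6 effective reads, log axis) of 15 genes in each of the 8 libraries, 1 point per library, with filled circles for replicate 1 and open squares for replicate 2; a gene with no read sits near 0.13. The GFP- Pdgfrα- points (red) are the highest for the first 10 genes, with *Hbb-b1* at 4362 and 7619, overlap the others for *Pecam1*, and are the lowest for the last 4.

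The 20 genes with the largest differences above all 3 populations included, besides the globins and membrane genes, enzymes and regulators. Among them, *Car2* and *Car1* encode carbonic anhydrases, with 2129 and 2323 and 272 and 249.8 in GFP- Pdgfrα- cells. *Ctse*, an aspartic protease, had 1098 and 1215, and *Pklr*, which encodes the pyruvate kinase of red cells and liver, 257 and 255. *Kel* and *Ermap* encode blood group proteins, with 243 and 262 and 1545 and 1496. The transcription factors in this group were *Tal1*, at 222 and 295, and *Ikzf1*, at 618 and 616, and *Hemgn*, a nuclear protein of blood precursors, had 621 and 789.9. Others were *Pkhd1l1*, *Ces2g* and *Atp7b*, which encode a large membrane protein, a carboxylesterase and a copper transporter. Across these 20 genes the differences from the mean of 3 lay between 6.69 and 8.36 on the log2 scale.

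Regulators and receptors of the erythroid lineage were above all 3 populations too, and those in this paragraph were named after their values were seen. *Klf1*, the transcription factor that activates adult β-globin, had 149.5 and 169 in GFP- Pdgfrα- cells and 0.431 to 2.55 in the other libraries. *Gata1*, the main GATA factor of the lineage, had 69.7 and 71.6 against 0.126 to 1.09, and was at least 70.2-fold higher than in GFP+ Pdgfrα+ cells, which had no read of it. *Epor*, the erythropoietin receptor, had 110.4 and 95.6, against 6.92 and 5.79 (GFP+ Pdgfrα-), 0.126 and 0.446 (GFP- Pdgfrα+) and 1.24 and 0.719 (GFP+ Pdgfrα+). In words, the receptor was high in GFP- Pdgfrα- cells, low but above the floor in GFP+ Pdgfrα- cells and near the floor in the Pdgfrα+ cells. *Cldn13*, a claudin gene of the erythroid list, had 88.3 and 86.4 and no read in either Pdgfrα+ population, at least 84.0-fold and 86.8-fold higher.

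Genes of early and of late steps were found together. *Kit*, the receptor for stem cell factor on progenitors, had a signal of 346 and 266 in GFP- Pdgfrα- cells, against 13.2 and 9.13 (GFP+ Pdgfrα-), 2.14 and 3.71 (GFP- Pdgfrα+) and 3.18 and 4.17 (GFP+ Pdgfrα+). Its log2 difference from the mean of 3 was 5.67 (standard error 0.25, adjusted p = 1.88e-09, limma), with both GFP- Pdgfrα- values above the other 6. *Gata2*, a GATA factor of earlier progenitors that was named after its values were seen, was low at 18.5 and 19.2 but also above all 3. *Cd34*, an antigen of earlier progenitors and of stroma named in the same way, was low at 3.59 and 7.19 and below all 3. Of 10 measured genes on the blood stem and progenitor list, 7 were above all 3 and 1 below, with summed signals of 1911 and 1916 in GFP- Pdgfrα- cells and 53.2 to 94.2 elsewhere. The gene below was *Hlf*, a factor of stem cells. *Mecom*, at 2.73 and 5.31 against 5.95 to 30.4, was called lower than the mean of 3 (log2 difference -1.52). *Sfpi1*, at 3.30 and 0.825, was not called. Among the 7 above, *Cd48* had 4.17 and 2.71 and no read in any other library, so the authors' count filter set its place. *Flt3*, a receptor of lymphoid and myeloid progenitors, was not in the table. Whether early and late genes were read in the same cells cannot be told from bulk RNA.

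Listed genes of heme synthesis and iron uptake were all higher. All 14 listed genes were measured and 14 were above all 3 populations, with a median log2 difference of 4.17. The summed signal was 6372 and 6995 in GFP- Pdgfrα- cells and 257 to 295 in the other libraries. *Tfrc*, the transferrin receptor that brings in iron, had 1639 and 1697, against 53.0 and 50.04 (GFP+ Pdgfrα-), 30.4 and 28.1 (GFP- Pdgfrα+) and 22.2 and 19.7 (GFP+ Pdgfrα+). The replicates of GFP- Pdgfrα- cells lay close together and far above the rest (log2 difference from the mean of 3, 5.68, standard error 0.12, adjusted p = 1.14e-11, limma). *Alas2*, the erythroid enzyme of the first step, had 292 and 390.2, and *Fech*, the enzyme that inserts iron in the last step, 585 and 585. *Slc25a37*, which carries iron into mitochondria, had 1495 and 1645. By contrast *Alas1*, the form of the first enzyme that most tissues use, was 8.76 and 10.7 and lower than the mean of 3 (log2 difference -0.86, standard error 0.22, adjusted p = 0.00431, limma). It was named after its values were seen.

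Of 15 genes on the list of red cell maturation, 15 were measured and 15 were above all 3, with a median log2 difference of 3.39 and summed signals of 2407 and 2704 against 569 to 652. *Trim58*, near the floor in every other library, had its place set by the authors' count filter. The differences were uneven. *Add2*, which encodes the β-adducin of the membrane skeleton, rose by 6.04 on the log2 scale. *Foxo3*, *Ulk1* and *Xpo7*, which act in stress resistance, autophagy and nuclear export in many cell types, rose by 0.71, 0.85 and 0.89.

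The GFP- Pdgfrα- libraries also carried the RNA of dividing cells. All 15 genes on the cell division list and all 15 on the DNA replication list were above all 3 populations, with median log2 differences of 3.43 and 3.47. The division list summed to 8744 and 9742 in GFP- Pdgfrα- cells, against 1220 and 1001 (GFP+ Pdgfrα-), 325 and 246 (GFP- Pdgfrα+) and 688 and 549 (GFP+ Pdgfrα+). *Mki67*, which encodes the chromosome-coating protein Ki-67, was its most abundant member and 1 of the 10 genes with the highest signal in GFP- Pdgfrα- cells. It had 5385 and 6467 there, against 571 and 477 (GFP+ Pdgfrα-), 130.5 and 106 (GFP- Pdgfrα+) and 294 and 255 (GFP+ Pdgfrα+). The order of the populations was the same in both replicates, with GFP- Pdgfrα- cells highest and GFP+ Pdgfrα- cells next (log2 difference from the mean of 3, 4.52, standard error 0.12, adjusted p = 4.31e-11, limma). *Pcna*, the sliding clamp of DNA polymerase, had 570 and 659 and *Rrm2*, a subunit of ribonucleotide reductase, 426 and 416, with 34.9 to 89.0 and 8.70 to 27.9 in the other libraries. The share of cells in cycle was not measured.

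Mitochondrial RNA was abundant in GFP- Pdgfrα- cells, where it made up 36.9% and 39.1% of reads. It made up 13.0% to 24.2% elsewhere. The ribosomal RNA *mt-Rnr2* alone made up 27.2% and 29.1% of reads in GFP- Pdgfrα- cells and 9.52% to 17.6% elsewhere. Of 15 mitochondrially encoded genes 14 were above all 3, with a median log2 difference of 1.23, and after quantile normalization 9 were. Their part in the other differences was tested only by rescaling without them, after which 2864 genes were above and 3462 below all 3 populations, 2758 and 3325 of them the same genes as before. Against GFP+ Pdgfrα- cells that rescaling gave 3275 genes higher and 5222 lower.

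Promoter sequences were looked at for the GATA motif, since GATA-family factors bind it and *Gata1* was among the genes above all 3. The motif AGATAA, on either strand (TTATCT), was searched in the 300 bases around each gene start, 250 before and 50 after, in RefSeq promoters of build GRCm38.p6. It was present in 11.4% of all 27025 promoters. Of the 24 erythroid genes, 16 had a promoter matched by symbol and 8 of those (50%) held the motif, as did 3 of 10 heme and iron genes (30%). For comparison, the share was 6.58% of 11439 promoters matched to genes in the table, 7.71% of 2399 for genes above all 3 and 4.87% of 2627 for genes below all 3. The motif CCACACCC, which binds factors of the Krüppel family such as Klf1, was in 3.57% of all promoters and in 0 of the 16. A match is a description of the sequence and not a measured binding site. The 4 erythroid promoters with the motif whose genes differed most are printed 5′ to 3′ with the match in capitals: *Hemgn* (chr4:46404134-46404433, minus strand), *Kel* (chr6:41704276-41704575, minus strand), *Epb4.2* (chr2:121036828-121037127, minus strand) and *Alas2* (chrX:150547167-150547466, plus strand).
Hemgn: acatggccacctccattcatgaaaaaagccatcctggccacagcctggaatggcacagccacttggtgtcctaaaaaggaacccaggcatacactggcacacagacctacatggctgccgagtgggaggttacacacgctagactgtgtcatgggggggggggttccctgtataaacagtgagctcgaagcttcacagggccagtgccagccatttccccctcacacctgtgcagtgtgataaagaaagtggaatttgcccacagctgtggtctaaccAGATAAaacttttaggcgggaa
Kel: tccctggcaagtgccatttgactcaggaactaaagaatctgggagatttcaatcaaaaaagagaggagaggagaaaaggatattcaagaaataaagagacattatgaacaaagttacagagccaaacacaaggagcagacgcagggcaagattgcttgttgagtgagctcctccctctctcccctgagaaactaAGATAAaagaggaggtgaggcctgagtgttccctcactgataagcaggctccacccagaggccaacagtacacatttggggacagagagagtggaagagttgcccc
Epb4.2: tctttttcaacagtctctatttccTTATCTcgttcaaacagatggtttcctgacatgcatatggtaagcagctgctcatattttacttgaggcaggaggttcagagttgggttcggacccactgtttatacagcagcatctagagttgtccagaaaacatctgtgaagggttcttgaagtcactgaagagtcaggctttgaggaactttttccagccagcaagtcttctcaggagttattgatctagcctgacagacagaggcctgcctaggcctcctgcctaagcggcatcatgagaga
Alas2: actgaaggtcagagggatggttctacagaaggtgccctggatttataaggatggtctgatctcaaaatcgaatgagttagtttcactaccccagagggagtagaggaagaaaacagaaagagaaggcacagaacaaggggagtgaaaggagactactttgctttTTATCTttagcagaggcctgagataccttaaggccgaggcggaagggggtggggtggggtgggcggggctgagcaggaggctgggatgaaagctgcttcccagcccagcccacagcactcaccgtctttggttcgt

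Other blood lineages were present at much lower levels. Of 17 neutrophil genes 11 were in the table, and 6 were above all 3 populations. Of the 6, *Elane*, *Ltf* and *Mmp8* had at most 1.82 in every other library. They passed the authors' count filter only through GFP- Pdgfrα- cells, so that filter set their place. The list summed to 101 and 75.6 in GFP- Pdgfrα- cells, against 28.3 and 30.0 (GFP+ Pdgfrα-), 25.1 and 16.2 (GFP- Pdgfrα+) and 24.2 and 43.3 (GFP+ Pdgfrα+). The sum was therefore higher in GFP- Pdgfrα- cells but small beside the erythroid one. Its most abundant gene was *Ngp*, a granule protein, at 15.4 and 17.8. *Mpo*, the myeloperoxidase of granules, had 13.6 and 8.14, and *Elane* was measured while *Prtn3*, *Ctsg*, *Camp*, *Cebpe*, *Ly6g* and *Fcnb* were not in the table. Of 13 genes of phagocyte killing 12 were measured and 5 were above all 3, led by *Laptm5*, a lysosomal protein of blood cells, at 32.3 and 39.5. *Mpo* and *Elane* count in both lists. The same filter set the place of *Elane* and of *Cybb*, which had at most 0.607 elsewhere.

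Of 16 monocyte and macrophage genes 7 were in the table and 0 were above all 3 by limma, although 3 were called higher than the mean of 3. After quantile normalization 3 were above all 3 and 6 higher than the mean of 3. They summed to 43.5 and 49.9 in GFP- Pdgfrα- cells, against 23.7 and 23.8 (GFP+ Pdgfrα-), 24.6 and 13.5 (GFP- Pdgfrα+) and 5.11 and 20.3 (GFP+ Pdgfrα+). The most abundant was *Lyz2*, a lysozyme, at 20.8 and 25.8, and *Emr1*, *C1qa*, *C1qb* and *C1qc* were not in the table. Of 13 megakaryocyte and platelet genes 7 were measured and 3 were above all 3, with sums of 44.4 and 73.5 in GFP- Pdgfrα- cells and 15.9 to 34.1 elsewhere. Of these 3, *Gp5* and *Gp9* were near the floor in every other library, so the authors' count filter set their place. *Vwf*, the von Willebrand factor, which endothelial cells also make, led the list at 26.6 and 47.8, and *Pf4* and *Ppbp* were not in the table.

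Lymphoid, mast cell and eosinophil lists were almost absent from the table. Of 14 B lymphoid genes 3 were in the table, of 10 T and NK genes 1, of 10 mast cell and basophil genes 1 and of 6 eosinophil genes 0. None of the 5 measured genes was above all 3, and after quantile normalization 1 B lymphoid gene and the mast cell gene were. The B lymphoid genes summed to 1.87 and 6.01 in GFP- Pdgfrα- cells. *Cd247*, the T cell gene, had 0.718 and 8.84, and *Hdc*, the mast cell gene, 3.30 and 1.77. Osteoclast genes divided. *Acp5*, an acid phosphatase of osteoclasts and other blood cells, had 97.2 and 108 in GFP- Pdgfrα- cells and 0.882 to 4.01 elsewhere, above all 3 (log2 difference from the mean of 3, 5.37). Of the other 6 measured osteoclast genes, *Ctsk*, *Nfatc1* and *Itgb3* were below all 3, with *Ctsk*, the cathepsin that digests bone collagen, at 0.431 and 1.77. Another 3 were at no more than 3 reads in both GFP- Pdgfrα- libraries. The part of these blood lineages in the result was not tested.

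Stromal genes fell. On the fibroblast and mesenchyme list 19 of 19 genes were measured and 16 were below all 3 populations, with a median log2 difference of -4.35. The 16 include *Pdgfra*, on which the cells were sorted. The list summed to 1528 and 1899 in GFP- Pdgfrα- cells, against 10308 and 9518 (GFP+ Pdgfrα-), 70226 and 66483 (GFP- Pdgfrα+) and 111739 and 90563 (GFP+ Pdgfrα+). This is 17.3%, 2.51% and 1.69% of the 3 in that order, so stromal RNA was low but present. *Col3a1*, the chain of type III collagen, had 122 and 106 in GFP- Pdgfrα- cells, against 1318 and 1168 (GFP+ Pdgfrα-), 11278 and 10779 (GFP- Pdgfrα+) and 7607 and 7310 (GFP+ Pdgfrα+). The GFP- Pdgfrα- libraries were the lowest without overlap, and the distance was smallest to GFP+ Pdgfrα- cells (log2 difference from the mean of 3, -5.35, standard error 0.10, adjusted p = 1.01e-11, limma). The 3 genes of the list that did not pass in every comparison were the transcription factor genes *Twist1*, *Twist2* and *Prrx2*.

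The 20 largest decreases below all 3 were of several kinds. *Agtr2*, a receptor of angiotensin II (ENSMUSG00000068122, chromosome X, 21061670 to 21066290, plus strand), had 5.60 and 5.54 in GFP- Pdgfrα- cells, against 429.6 and 495 (GFP+ Pdgfrα-), 1047 and 989.5 (GFP- Pdgfrα+) and 854 and 1128 (GFP+ Pdgfrα+). It was high in all 6 other libraries, among the largest differences of the table (-6.88 on the log2 scale, standard error 0.12, adjusted p = 7.81e-12, limma). Among matrix genes, *Tnxb*, tenascin X, had 2.73 and 2.00 against 47.2 to 1310. *Col6a6*, a chain of type VI collagen, had 3.59 and 2.48 against 266 to 402, and *Dpt*, dermatopontin, 3.02 and 1.06 against 96.1 to 435. *Vcan*, the proteoglycan versican, had 15.9 and 32.2 against 576 to 3914. Signalling genes were *Sfrp1*, a secreted Wnt antagonist, *Igf1*, insulin-like growth factor 1, and *Gpc3*, a glypican of the cell surface, with differences of -6.13, -5.67 and -5.70. *Dlk1*, *Plagl1* and *Zim1*, which are imprinted genes, differed by -5.92, -5.88 and -5.71. The rest of the 20 were *Gas7*, *Ptgfrn*, *Lrrc17*, *Abca8a*, *Abca9*, *Lama2*, *Pdzrn3*, *Itm2a* and AW551984, between -6.27 and -5.64.

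**Figure D2:**
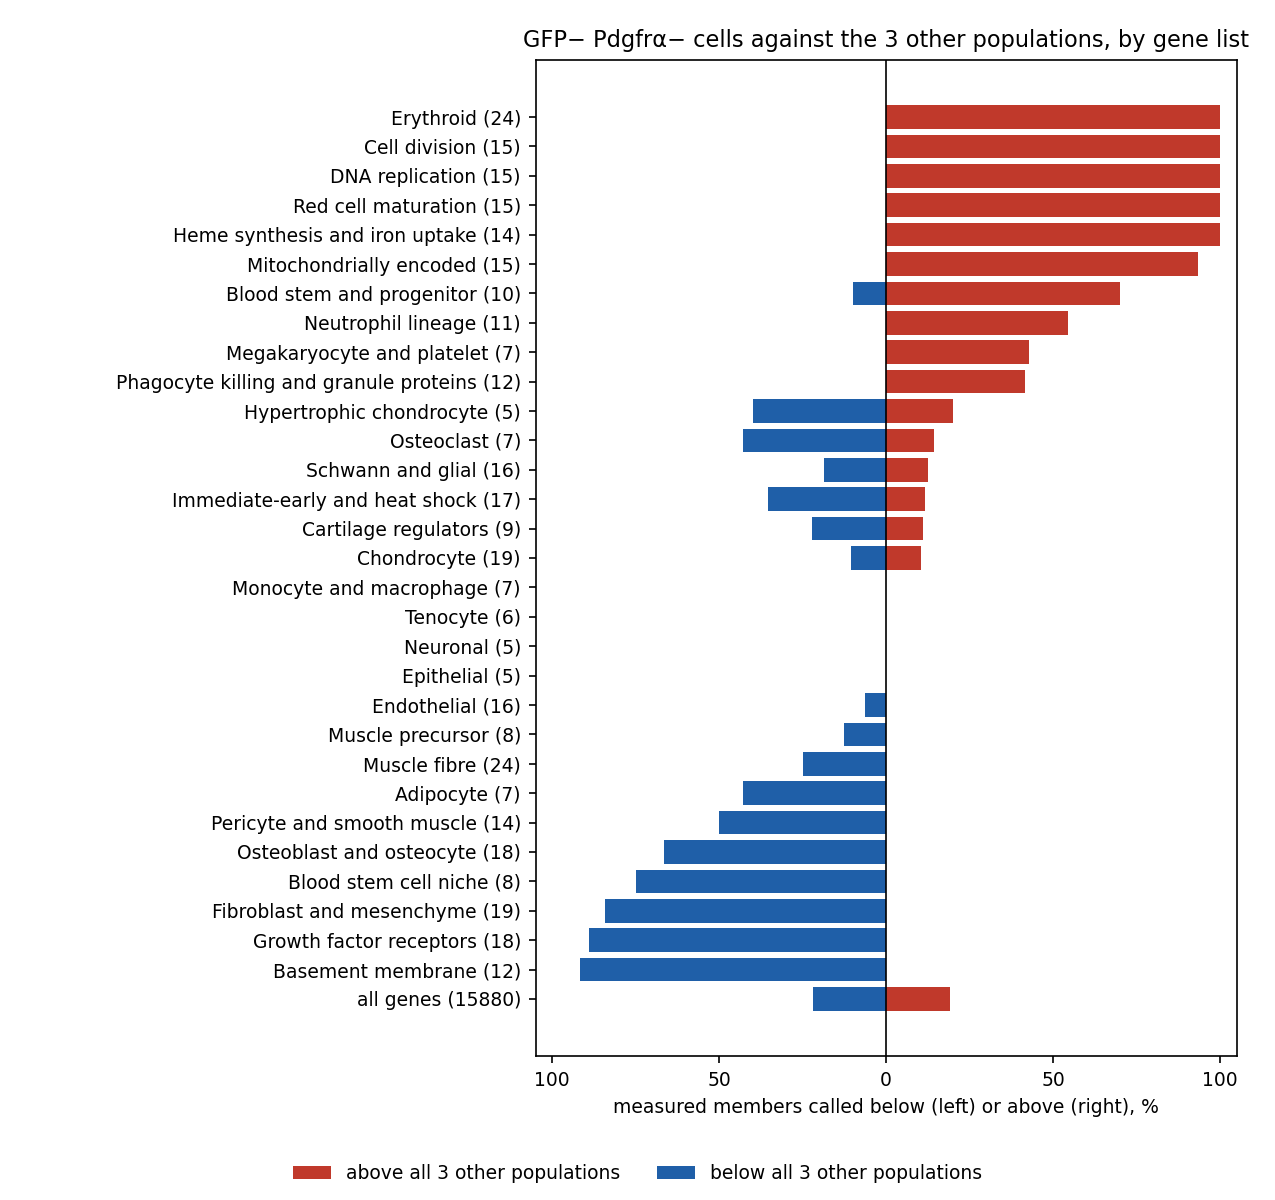
Percentage of the measured members of each gene list called above (red, right) or below (blue, left) all 3 other populations in GFP- Pdgfrα- cells, for the lists with at least 5 measured members, with the number measured in brackets. Erythroid, division, replication, maturation and heme genes were all above, basement membrane and fibroblast genes mostly below, and over all genes 19.2% were above and 22% below.

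Most listed genes of the basement membrane and most listed growth factor receptors were low as well. Of 12 basement membrane genes 11 were below all 3, with sums of 601 and 1067 against 10320 to 31612 and a median log2 difference of -4.51. *Lama2*, the laminin α2 chain, had 13.1 and 15.7 against 608 to 1065, and *Nid1*, which bridges laminin and type IV collagen, 37.2 and 51.0 against 597 to 3138. The 1 gene that did not pass in each comparison was *Lama5*. Of 18 growth factor receptors 16 were below all 3, with sums of 662 and 649 against 2726 to 4292. The 16 include *Pdgfra*, on which the cells were sorted. *Fgfr1*, a receptor of fibroblast growth factors, had 7.32 and 9.79, against 327 and 322 (GFP+ Pdgfrα-), 383 and 373 (GFP- Pdgfrα+) and 348 and 309 (GFP+ Pdgfrα+). It was at a like level in the other 3 populations and low only in GFP- Pdgfrα- cells (log2 difference from the mean of 3, -5.18, standard error 0.12, adjusted p = 1.72e-11, limma). *Egfr*, the receptor of epidermal growth factor, had 6.46 and 8.61 against 149 to 394. *Fgfr3* and *Ptch1* did not pass in every comparison.

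Genes by which stroma supports blood stem cells were low in GFP- Pdgfrα- cells, with 6 of 8 below all 3 and sums of 38.8 and 53.3 against 281 to 1311. *Cxcl12*, the chemokine that holds stem cells in marrow, had 9.34 and 17.1, against 62.0 and 73.5 (GFP+ Pdgfrα-), 170.1 and 136 (GFP- Pdgfrα+) and 709 and 631 (GFP+ Pdgfrα+). *Kitl*, the stem cell factor that *Kit* binds, had 4.17 and 4.13, against 7.16 and 11.7 (GFP+ Pdgfrα-), 24.6 and 28.1 (GFP- Pdgfrα+) and 55.9 and 67.1 (GFP+ Pdgfrα+). Receptor and ligand were thus on opposite sides, with *Kit* highest and *Kitl* lowest in GFP- Pdgfrα- cells. The difference in *Kitl* from GFP+ Pdgfrα- cells was the smallest, at -0.98 on the log2 scale (standard error 0.28, adjusted p = 0.0104, limma).

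Bone, vessel wall and muscle precursor lists summed lower than in every other library, while the muscle fibre list overlapped GFP- Pdgfrα+ cells. Of 18 osteoblast and osteocyte identifiers, 12 were below all 3, with sums of 866 and 1076 against 5241 to 95353, led by *Col1a1* at 435 and 560.2. *Col1a1* and *Col1a2*, the latter at 299 and 386, are also on the fibroblast list. They made up most of the osteoblast sum in each library, so the sums of these lists are not separate results. Of 14 measured pericyte and smooth muscle genes 7 were below all 3, with sums of 110 and 181 against 712 to 3621, led by *Rgs5*, a regulator of G protein signalling, at 21.1 and 39.5. Against GFP- Pdgfrα+ cells alone, 7 of the 14 were lower and 2 higher. The muscle precursor list summed to 15.2 and 10.1, where the lowest other library had 123, and 4 of its 8 genes were at no more than 3 reads in both GFP- Pdgfrα- libraries. Only 1 of the 8, *Chodl*, was below all 3, and 5 were at no more than 3 reads in GFP- Pdgfrα+ cells as well. Of 24 muscle fibre identifiers 6 were below all 3, a share close to the 22% of all genes, and after quantile normalization 0 were. Their sums were 142 and 101 in GFP- Pdgfrα- cells and 102 and 109.6 in GFP- Pdgfrα+ cells. Of 5 measured neuronal genes 5 were at no more than 3 reads in both libraries, and of 5 measured epithelial genes 4, and 0 of either list were below all 3. Of 7 adipocyte genes 3 were below all 3, and 1 after quantile normalization, while the other 4 lay above the mean of 3, 1 of them called, and the median log2 difference was 0.38. Among the 3 was *Pparg*, the factor that drives fat cell formation, at 2.15 and 0.825.

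**Figure D3:**
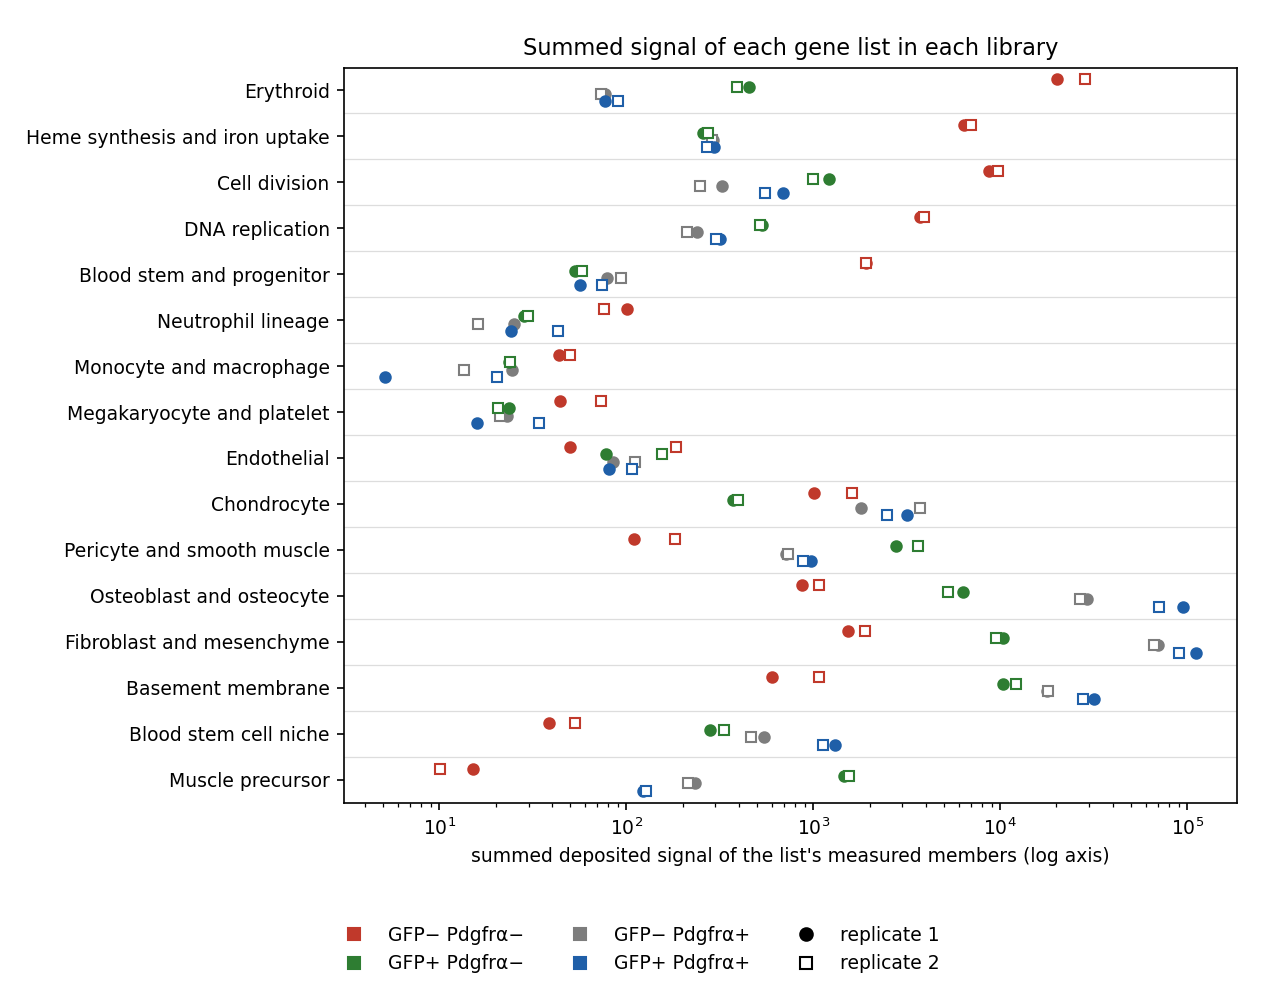
Summed deposited signal of the measured members of 16 gene lists in each of the 8 libraries (log axis), with filled circles for replicate 1 and open squares for replicate 2. GFP- Pdgfrα- cells (red) are highest for the erythroid list (20145 and 28243) and lowest for the fibroblast list (1528 and 1899), and their replicates differ for the endothelial list (49.98 and 184).

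Cartilage genes differed in direction between the comparisons. Of 20 chondrocyte genes 19 were measured, with 2 above and 2 below all 3, both smaller shares than the 19.2% and 22% of all genes. Against the mean of 3, 11 were higher and 4 lower, with a median log2 difference of 0.89. It summed to 1008 and 1609 in GFP- Pdgfrα- cells, against 374 and 394 (GFP+ Pdgfrα-), 1800 and 3712 (GFP- Pdgfrα+) and 3173 and 2480 (GFP+ Pdgfrα+). *Col2a1*, the cartilage collagen, was its most abundant gene at 371 and 753, against 12.02 and 48.2 (GFP+ Pdgfrα-), 273 and 1498 (GFP- Pdgfrα+) and 175 and 280.4 (GFP+ Pdgfrα+). It lay within the range of GFP- Pdgfrα+ cells and above GFP+ Pdgfrα- cells (log2 difference 4.39, standard error 0.70, adjusted p = 0.000199, limma). The genes above all 3 were *Matn1*, a cartilage matrilin, at only 5.31 and 4.36, and *Sox6*, a factor of cartilage and of erythroid cells, at 204 and 227 against 25.0 to 44.4. *Matn1* was near the floor in every other library, so the authors' count filter set its place. The partner factors of *Sox6* in cartilage were below all 3, with *Sox9* at 8.76 and 10.7 and *Sox5* at 8.76 and 5.78. On a separate list of hypertrophic cartilage, 5 genes were measured, with 1 above and 2 below all 3, too few to set against the 19.2% and 22% of all genes. *Col10a1*, the collagen of hypertrophic cartilage, was above at 63.9 and 73.5, while *Ibsp* and *Mmp13* were below.

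Of 16 Schwann and glial genes 12 were lower than the mean of 3, while 3 were below and 2 above all 3, no larger a share than among all genes. After quantile normalization 1 was above all 3. *Mbp*, which encodes myelin basic protein and, from the same locus, transcripts of blood cells, had 121 and 108 against 2.40 to 53.0, and *Gfap*, a filament protein of glia, 5.89 and 11.0 against 0.129 to 1.58. *Gfap* passed the authors' count filter only through GFP- Pdgfrα- cells, so that filter set its place. *Sox10*, the defining factor of Schwann cells, was near the floor at 0.431 and 1.30, where GFP+ Pdgfrα- cells had 83.2 and 85.8. Among 17 immediate-early and heat shock genes 6 were below all 3 and 2 above, the latter the chaperone genes *Hspa8* and *Hsp90aa1*. *Fos*, an immediate-early factor, had 24.3 and 27.7 against 73.8 to 505, and *Egr1* 177 and 249 against 478 to 3811.

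Endothelial genes differed between the GFP- Pdgfrα- libraries. Of 18 listed genes 16 were measured, 0 were above and 1 below all 3 by limma, and 2 were called higher than the mean of 3. After quantile normalization 1 was above all 3 and 7 were higher than the mean of 3. The list summed to 49.98 and 184 in GFP- Pdgfrα- cells, against 77.5 and 155 (GFP+ Pdgfrα-), 85.0 and 111 (GFP- Pdgfrα+) and 80.4 and 108 (GFP+ Pdgfrα+). Replicate 2 of GFP- Pdgfrα- cells was thus the highest library and replicate 1 the lowest, but replicate 2 was higher in all 4 populations, so a difference between the pools of pups cannot be told apart. *Cdh5*, the cadherin of vessels, had 11.6 and 48.0, and *Kdr*, a receptor of vascular endothelial growth factor, 3.02 and 22.1. The gene below was *Tek*, the angiopoietin receptor, at 0.718 and 6.25 against 17.1 to 39.5. Over the whole table, 1292 genes (8.14%) differed by at least 1 on the log2 scale between the 2 GFP- Pdgfrα- libraries, 824 of them higher in replicate 2. The same share was 5.78% in GFP+ Pdgfrα-, 6.61% in GFP- Pdgfrα+ and 10.65% in GFP+ Pdgfrα+ cells. In GFP- Pdgfrα- cells the erythroid sum was 1.40 times as high in replicate 2, and the division and replication sums 1.11 and 1.05 times.

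Each population lacked or carried other things when set against GFP- Pdgfrα- cells alone. Against GFP+ Pdgfrα- cells, 3740 genes (23.6%) were called higher in GFP- Pdgfrα- cells and 4787 (30.1%) lower, and after quantile normalization 4419 were higher and 3871 lower. This pair differs in GFP alone by its gates. Of 8 muscle precursor genes 8 were lower in GFP- Pdgfrα- cells, and of 16 glial genes 13 were, while of 19 cartilage genes 14 were higher. *Pax7*, the factor of muscle satellite cells, had 1.29 and 1.53 against 296 and 336 (log2 difference -7.04, standard error 0.31, adjusted p = 4.21e-09, limma). All 24 erythroid genes were higher, with a median log2 difference of 6.05.

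Against GFP- Pdgfrα+ cells, 4250 genes (26.8%) were called higher and 5226 (32.9%) lower, and after quantile normalization 5086 were higher and 4249 lower. This pair differs in surface Pdgfrα alone by its gates. All 6 tendon genes and 19 of 19 fibroblast genes, the sorted *Pdgfra* among them, were lower in GFP- Pdgfrα- cells, as were 9 of 19 cartilage genes. Of the tendon genes 4 were higher than in GFP+ Pdgfrα- cells and 0 were below all 3. *Thbs4*, a thrombospondin of tendon, had 46.7 and 53.4 against 2265 and 2229 (log2 difference -5.46, standard error 0.14, adjusted p = 4.95e-11, limma). The median of the 24 erythroid genes was 7.13.

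Against GFP+ Pdgfrα+ cells, 4189 genes (26.4%) were called higher and 5221 (32.9%) lower, and after quantile normalization 5132 were higher and 4059 lower. Of 18 osteoblast and osteocyte identifiers 17 were lower in GFP- Pdgfrα- cells. *Ibsp*, a bone sialoprotein, had 8.47 and 13.1 against 2466 and 1774 (log2 difference -7.50, standard error 0.25, adjusted p = 3.22e-10, limma). The median of the 24 erythroid genes was 6.83. Whether any of these lists differed more from one population than from another was not tested.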

How the data were processed

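RNA of 4 sorted populations, 2 libraries each, was sequenced. The authors trimmed reads with cutadapt, quantified them with RSEM 1.17 on the NCBIM37 transcriptome, filtered genes and normalized with voom. The deposited unit is the authors' normalized signal, which is not logged, and 100% of the values gave whole reads within 0.01 of a read. Reads per library were 4058258 and 5302762 in GFP- Pdgfrα- cells and 3221217 to 3869275 in the others. The normalization factor lay at 0.858 and 0.800 in GFP- Pdgfrα- cells and at 1.02 to 1.13 in the others. GENCODE M1 gave coordinates and symbols for 15849 of 15880 identifiers, and RefSeq promoters were joined by symbol.

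Values were put on log2(signal + 1) and fitted by limma 3.58.1 under R 4.3.3, using a variance trend. The 4 population means leave 4 residual degrees of freedom, and p-values were adjusted over all genes. On the recovered reads, edgeR 4.0.16 called 2969 genes above and 3562 below all 3, and 4491 higher and 5307 lower than the mean of 3. The fit was tested on simulated data. Tables used Python 3.11.15 with pandas 2.3.3 and numpy 2.4.6, and plots matplotlib 3.10.9.

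A replicate number was taken to stand for 1 pool of littermates, which the design text describes. Deviations from the population mean correlated weakly between libraries of 1 number (0.00433 to 0.0812 over pairs of populations). *Xist*, transcribed from the inactive X, was 11.3 and 1351 in the GFP- Pdgfrα- libraries and likewise low in replicate 1 and high in replicate 2 elsewhere, so the number follows the pool. The fit has no term for it.

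Members and lists were chosen with earlier results of these data known. Named genes were those behind the sort, the 20 largest increases and 20 largest decreases among genes above or below all 3 with no overlap, up to 6 members of each list with the highest mean in GFP- Pdgfrα- cells and 3 others with the highest mean over all libraries, and the 10 genes with the highest mean in GFP- Pdgfrα- cells. Predicted genes and pseudogenes were left out of the largest differences, and some genes that meet the rule are not reported here. Alternatives were a replicate block, a pseudocount of 0.1, a filter on signal above 2 in 2 libraries, centring on the median, quantile normalization, rescaling without mitochondrial genes, no variance trend, voom and edgeR on recovered reads, a minimum difference of 1, and leaving out libraries.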

Additional observations from a re-analysis of the deposited data

How the results depend on the processing

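No named gene reversed under any alternative. The number of genes above all 3 fell from 3049 to 2021 when a difference of at least 1 on the log2 scale was asked in each comparison, by construction, and the number below to 2944. With the replicate number as a block, which treats libraries of a number as paired by pool, 3085 genes were above and 3512 below all 3, and 3018 and 3455 of them were the same genes. After quantile normalization 3492 were above and 2727 below, of which 2866 and 2672 were the same genes. Of 329 named genes, quantile normalization ended 10 calls against the mean of 3 and added 15, the most of any alternative that kept all libraries.

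Leaving out 1 library at a time, the number above all 3 lay between 2546 and 2915 and below between 3079 and 3367. The calls against GFP+ Pdgfrα- cells lay between 7053 and 8672 (8527 with all libraries), against GFP- Pdgfrα+ cells between 8153 and 9735 (9476), against GFP+ Pdgfrα+ cells between 8217 and 9243 (9410) and against the mean of 3 between 8604 and 10404 (10235). Leaving out libraries of the other populations was chosen after seeing the data. The lone library of a population was assumed to vary like the other groups. Without a whole replicate number no residual spread was left, so differences but no calls were computed. In all, 2732 genes had no more than 3 reads in both GFP- Pdgfrα- libraries, against 1129 to 1250 in the other populations.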

Other observations

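The gene lists in these paragraphs and the genes named from them were added after the values had been seen. Some of their members, such as *Nfe2*, *Gfi1b* and *Ikzf1*, also belong to lists above, so part of the counts repeats earlier calls. Imprinted genes, many of which promote or restrain growth of the newborn, were low in GFP- Pdgfrα- cells, with 25 of 27 measured genes below all 3 populations and 0 above. They summed to 1373 and 1934 in GFP- Pdgfrα- cells, against 21359 and 23470 (GFP+ Pdgfrα-), 43248 and 42807 (GFP- Pdgfrα+) and 26863 and 28980 (GFP+ Pdgfrα+). *Igf2*, insulin-like growth factor 2, had 245 and 438, against 4104 and 4091 (GFP+ Pdgfrα-), 13853 and 12997 (GFP- Pdgfrα+) and 7272 and 7468 (GFP+ Pdgfrα+). The GFP- Pdgfrα- values were the lowest without overlap (log2 difference from the mean of 3, -4.49, standard error 0.17, adjusted p = 4.75e-10, limma). The RNA *H19* from the same locus had 117 and 257 against 1126 to 7161, *Meg3* 28.0 and 43.0 against 1181 to 2221 and *Peg3* 144 and 184 against 4083 to 6155.

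Of 19 blood transcription factor genes 16 were above all 3, with a median log2 difference of 5.11. *Gfi1b*, a repressor of the erythroid and megakaryocyte lineages, had 173 and 222, *Zfpm1*, the partner of *Gata1*, 127 and 129.6 and *Nfe2*, an activator of globin genes, 63.9 and 63.8. *Runx1*, a factor of blood stem cells that other cells also express, had 53.0 and 56.5 against 51.8 to 95.7 and was not called. Of 15 genes of erythropoietin and stem cell factor signalling 8 were above and 2 below all 3, with *Jak2*, the kinase bound to the receptor, at 165 and 131 and *Stat5a*, its target, at 53.0 and 51.0. *Lin28b*, an RNA-binding protein of fetal blood progenitors, had 64.2 and 48.2 against 0.138 to 3.59.

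Genes of entry into the cell cycle divided. Of 13 cyclins, kinases and inhibitors of the first gap phase, 4 were above and 5 below all 3. Over all genes 19.2% were above and 22% below, and the list was not tested against these shares. *Ccnd1* and *Ccnd2*, D-type cyclins, had 21.1 and 17.8 and 72.0 and 69.0, against 72.0 to 159 and 144 to 383. The inhibitors *Cdkn1a* and *Cdkn1c* had 13.1 and 13.1 and 19.7 and 26.5, against 91.3 to 181 and 394 to 1113. *Cdk6*, the kinase of D cyclins, was above all 3 at 179.9 and 159.8, as was *E2f2*, a factor of replication genes, at 463 and 624 against 88.5 and 80.1 (GFP+ Pdgfrα-), 1.89 and 4.31 (GFP- Pdgfrα+) and 17.3 and 6.18 (GFP+ Pdgfrα+).

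Several lists of genes found in all cells had a larger share of members above all 3 than the 19.2% of all genes. Of 65 histone genes 57 were above all 3 (median log2 difference 2.87), of 39 proteasome genes 32, of 17 aminoacyl-tRNA synthetases 16, of 20 nucleoporins 18 and of 8 chaperonin subunits 7. Of the histone genes, 25 had no more than 3 reads in both GFP- Pdgfrα+ libraries, 16 in GFP+ Pdgfrα+ and 8 in GFP+ Pdgfrα- cells. Any near the floor in every other library passed the authors' count filter only through GFP- Pdgfrα- cells, which set their place. Of 74 cytoplasmic ribosomal protein genes 33 were above all 3 and 0 below, with a median log2 difference of 0.99, and after quantile normalization 17 were above. Of 42 collagen chains 26 were below and 1 above all 3, and of 29 semaphorins and plexins, which guide axons and vessels, 19 were below and 1 above.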
